A study of Arabidopsis thaliana with 3 samples.

Results

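Alpha and beta tubulin are the proteins that pair into the building block of microtubules, and the genes that encode them were followed here in shoots of Arabidopsis thaliana. Members were the probe sets annotated to exactly 1 gene whose symbol is TUA or TUB followed only by digits, with 1 probe set per gene, chosen by its mean log2 intensity over all arrays, the highest being kept. This gave 7 genes, 2 alpha tubulins (TUA1 and TUA6) and 5 beta tubulins (TUB1, TUB5, TUB6, TUB7 and TUB9), of 13356 genes with a probe set of their own among 22746 probe sets. Each of the 7 had a single such probe set, so the mean intensity had no choice to make. The TAIR10.1 gene table lists 6 alpha and 9 beta tubulin genes, and the other 8 had no probe set of their own among those used here.

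Transcript levels were measured on 3 microarrays, 1 of the flp-1/myb88 double mutant and 2 of the Col wild type, all from shoots of 10-day-old plants grown at 22 °C in constant light. The labels name the flp-1 allele but no allele of MYB88, and describe no further treatment or transgene. From each sample 25 ng of total RNA was amplified and labelled with biotin. The MYB factors FLP and MYB88 act in the stomatal lineage, where they keep a guard cell precursor from dividing again, and the comparison asks which transcripts differ when both are mutated. The mutant had no replicate, and nothing in the labels says that the Col arrays came from separate plants. Every p-value therefore reflects only how far these Col arrays lie apart, which may be technical. That spread was largely pooled over all probe sets, so a standard error is mostly not the gene's own.

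Microtubules are hollow polymers of alpha and beta tubulin pairs. In plant cells they form the cortical array that guides cellulose deposition, the preprophase band that marks the future division plane, the spindle, and the phragmoplast that builds the new cell wall. Guard cells carry radial arrays that accompany the shaping of the pore. Plants hold several genes for each of the partners, and the encoded proteins are close to each other in sequence.

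Before the tubulins, some facts of the arrays bear on every value. With limma, 11.9% of all probe sets were higher in the mutant and 14.4% were lower at a Benjamini-Hochberg adjusted p under 0.05, so a call is common in this comparison. The median log2 difference of all probe sets was 0.10 as deposited and 0.21 after the arrays were centred on their medians. Probe sets of the labelled tissue were bright on every array, with PSAN of photosystem I at a log2 intensity of 11.78 in the mutant against 11.53 and 11.14 in Col. Probe sets named as FLP or MYB88 were not among those analysed here, so the label of the mutant array was not checked by its targets.

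All 7 tubulin genes had a higher intensity in flp-1/myb88 than on both Col arrays, and 4 of them rose past limma's threshold, namely TUA1, TUA6, TUB6 and TUB9. Those 4 rose between 2.25-fold and 2.70-fold. The remaining 3, TUB1, TUB5 and TUB7, had ratios of mutant to Col from 1.38 to 1.64 and did not pass. No tubulin was lower. The median log2 difference of the 7 genes was 1.17, against 0.10 over all probe sets. As background, 11.9% of all probe sets were called higher and 49.2% lay above both Col arrays. A share of 5.13% lay at least 2-fold above both, which 3 of the 7 tubulins did. The family was singled out with earlier results of these arrays known, so these counts describe its members and are no independent evidence. In bulk shoots, a change in the share of a cell type and a change in RNA per cell cannot be told apart.

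**Figure D1:**
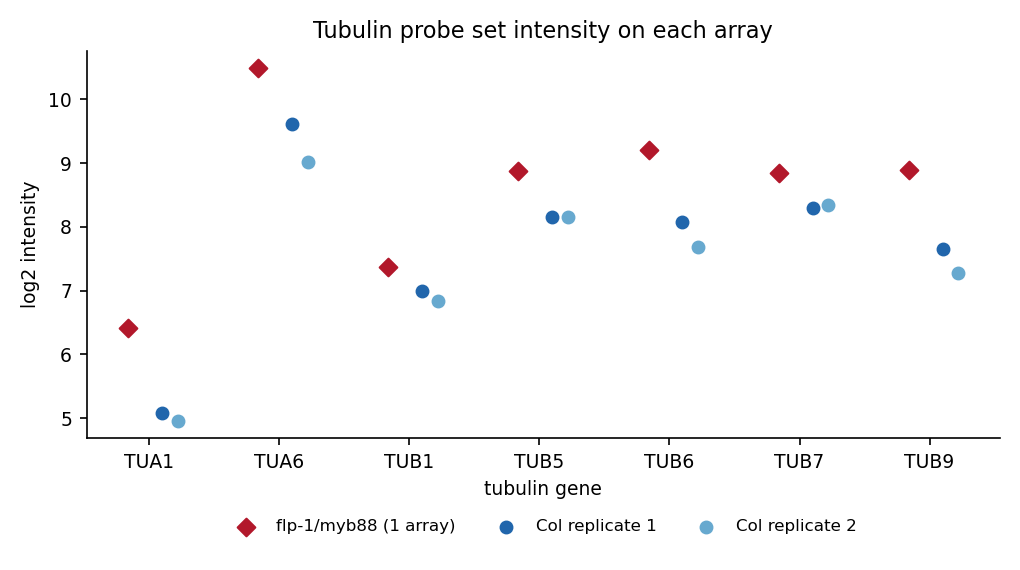
Log2 intensity (vertical axis) of the 7 tubulin probe sets (horizontal axis) on the flp-1/myb88 array (diamonds) and on Col replicates 1 and 2 (dark and light circles); each point is 1 array. The mutant point lies above both Col points for every gene, by 0.37 log2 at the least (TUB1) and 1.34 at the most (TUA1).

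Of the alpha tubulins, TUA1 (AT1G64740) had the larger difference. TUA1 is known for its expression in pollen. Its log2 intensity was 6.42 in flp-1/myb88, against 5.08 in Col replicate 1 and 4.96 in Col replicate 2. The Col arrays were close together and the mutant lay well above both. TUA1 rose by 1.40 ± 0.30 log2 (SE; 95% confidence interval 0.75 to 2.05; limma adjusted p = 0.00546), which is 2.64-fold. The linear intensities were 85.4 in the mutant against 33.8 and 31.1 in Col, and the deposited table holds no detection call, so how far background adds to the Col values was not tested. The median log2 intensity of bacterial control probe sets, which are dim, was 3.47 in the mutant against 3.10 and 3.04 in Col, while that of 923 pseudogene probe sets was 3.87 in the mutant against 4.02 and 3.93 in Col. Their part in the TUA1 result was not tested.

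TUA6 (AT4G14960) encodes the alpha tubulin that is widely used, fused to a fluorescent protein, to mark microtubules in living Arabidopsis cells, and altered TUA6 protein is known to give organs a left-handed twist. Its log2 intensity was 10.49 in flp-1/myb88, against 9.61 and 9.02 in Col. The mutant lay above both, but the Col arrays were themselves 0.59 log2 apart, the widest gap among the 7 tubulins. TUA6 rose by 1.17 ± 0.33 log2, or 2.25-fold (95% confidence interval 0.46 to 1.88 log2; limma adjusted p = 0.0209). Its difference was 0.88 log2 from Col replicate 1 and 1.47 log2 from Col replicate 2. The call was lost after quantile normalization, at 0.99 log2 and a limma adjusted p of 0.0717, and with a pseudocount of 16, at 1.15 log2 and an adjusted p of 0.0616.

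TUB9 (AT4G20890), a beta tubulin, had the largest difference of the 7 genes. Its log2 intensity was 8.90 in flp-1/myb88, against 7.65 and 7.28 in Col. Col replicate 2 was the lowest of the arrays, and the mutant exceeded the nearer Col array by 3.33 times the gap between the Col arrays. TUB9 rose by 1.44 ± 0.31 log2, or 2.70-fold (95% confidence interval 0.76 to 2.11 log2; limma adjusted p = 0.00591). Among all 22746 probe sets this was the difference of rank 363 from the top, with 1.59% of probe sets larger.

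TUB6 (AT5G12250), another beta tubulin that has served as a fluorescent marker of microtubules, behaved much like TUB9 on these arrays. Log2 intensities of TUB6 were 9.20 in the mutant and 8.07 and 7.68 in Col. Here too Col replicate 2 was below Col replicate 1 and the mutant was above both. The gene rose by 1.33 ± 0.31 log2, or 2.51-fold (95% confidence interval 0.65 to 2.00 log2; limma adjusted p = 0.00908), and 2.52% of all probe sets had a larger difference.

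The other beta tubulins had smaller differences that did not pass the threshold. TUB5 (AT1G20010) had a log2 intensity of 8.87 in the mutant, against 8.16 and 8.15 in Col. Its Col arrays nearly coincided. The difference was 0.72 ± 0.30 log2 (95% confidence interval 0.08 to 1.36; limma adjusted p = 0.0904), and an intensity trend in the variance moderation gave an adjusted p of 0.0453 for the same difference. After cyclic loess the TUB5 difference was 0.46 log2 (adjusted p = 0.272) and after quantile normalization 0.54 log2 (adjusted p = 0.199). TUB7 (AT2G29550) had 8.85 in the mutant and 8.29 and 8.34 in Col, the one tubulin whose Col replicate 2 was not below replicate 1. Its difference was 0.53 ± 0.30 log2 (95% confidence interval -0.11 to 1.17; limma adjusted p = 0.205).

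TUB1 (AT1G75780), a beta tubulin gene known to be repressed by light, had the smallest difference. Its log2 intensity was 7.38 in flp-1/myb88, against 7.00 and 6.83 in Col. The mutant was the highest of the arrays by a narrow margin. The difference was 0.46 ± 0.30 log2 (95% confidence interval -0.19 to 1.11; limma adjusted p = 0.277), and 30.3% of all probe sets had a larger one. The interval still holds changes of more than 2-fold, so the data do not show that TUB1 was the same in both genotypes.

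**Figure D2:**
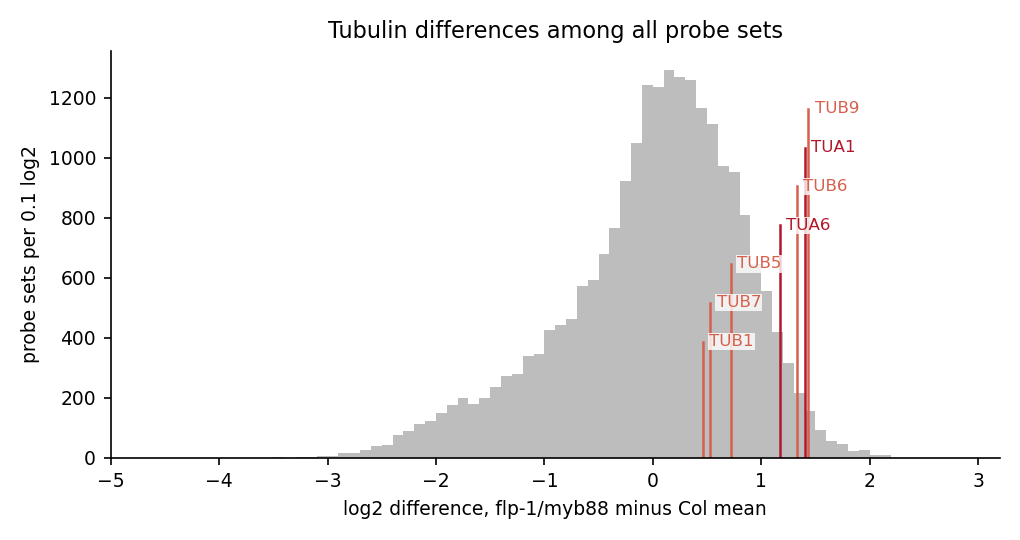
Number of probe sets (vertical axis, bins of 0.1 log2) by log2 difference of flp-1/myb88 from the Col mean (horizontal axis) for all 22746 probe sets, with the 7 tubulins as labelled lines (dark red for alpha, light red for beta; line heights only separate the labels). TUB9, TUA1, TUB6 and TUA6 lie in the right tail, where 1.59% to 4.62% of probe sets had larger differences, and TUB5, TUB7 and TUB1 lie nearer the centre, at 18.2% to 30.3%.

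Ordered by the size of the difference, the genes ran TUB9, TUA1, TUB6, TUA6, TUB5, TUB7 and TUB1. Neighbours in this order were 0.19 log2 apart at most, less than the standard error of each, except that TUA6 and TUB5 were 0.45 log2 apart, against standard errors of 0.33 and 0.30. The 95% confidence intervals of all 7 differences overlap. Both families were represented among the larger differences, with 2 of 2 alpha and 2 of 5 beta tubulins called higher, as were 11.9% of all probe sets. In each of the 10 settings tried, the deposited values included, those of the 4 called genes that were measured there lay above TUB5, TUB7 and TUB1. The intensity trend, the robust fit and the filter leave the differences as they are, so those settings could not change this split. That split was drawn after the values were seen. It is narrowest without Col replicate 2, where TUA6 was at 0.88 log2 and TUB5 at 0.71.

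The size of the larger differences depended on the Col array they were set against. Col replicate 2 lay below Col replicate 1 at 6 of 7 tubulins, against 47.8% of all probe sets. Among the 4 called genes the log2 difference of Col replicate 2 from replicate 1 ran from -0.59 at TUA6 to -0.12 at TUA1, and among the other 3 from -0.17 at TUB1 to 0.05 at TUB7. The median tubulin difference was 1.46 log2 against Col replicate 2 and 0.88 log2 against Col replicate 1. At each of the 7 genes the mutant exceeded the nearer Col array by more than the Col arrays differed from each other, which 36.9% of all probe sets did. That margin was 1.48 times the Col gap at TUA6, where it was smallest.

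Tubulin genes are near-identical copies over long stretches, and cross-hybridization between them was not analysed here, so part of the signal of a probe set may come from another tubulin gene. A further probe set is annotated to 2 alpha tubulin genes and was therefore left out of the members. Its log2 intensity was 10.01 in the mutant, against 8.94 and 8.50 in Col. It lay above both, with a difference of 1.29 ± 0.32 log2 (limma adjusted p = 0.0108), a size between those of TUA6 and TUA1.

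Control probe sets placed along the transcripts of actin, GAPDH and ubiquitin moved with the mutant array in a way that depended on their place. All 4 control probe sets in the middle of a transcript lay above both Col arrays, with log2 differences from 0.87 to 1.31, a range that reaches from above TUB5 to close to TUB6. Those at the 5′ end were below both Col arrays in 6 of 6 cases, with differences from -1.52 to -0.11. At the 3′ end 5 of 6 were above both, with differences from -0.29 to 0.90. For the first actin set, the middle probe set had a log2 intensity of 8.52 in the mutant, against 7.30 and 7.12 in Col. The place of each tubulin probe set along its transcript was not analysed here. The part of this pattern in the tubulin differences was not tested.

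**Figure D3:**
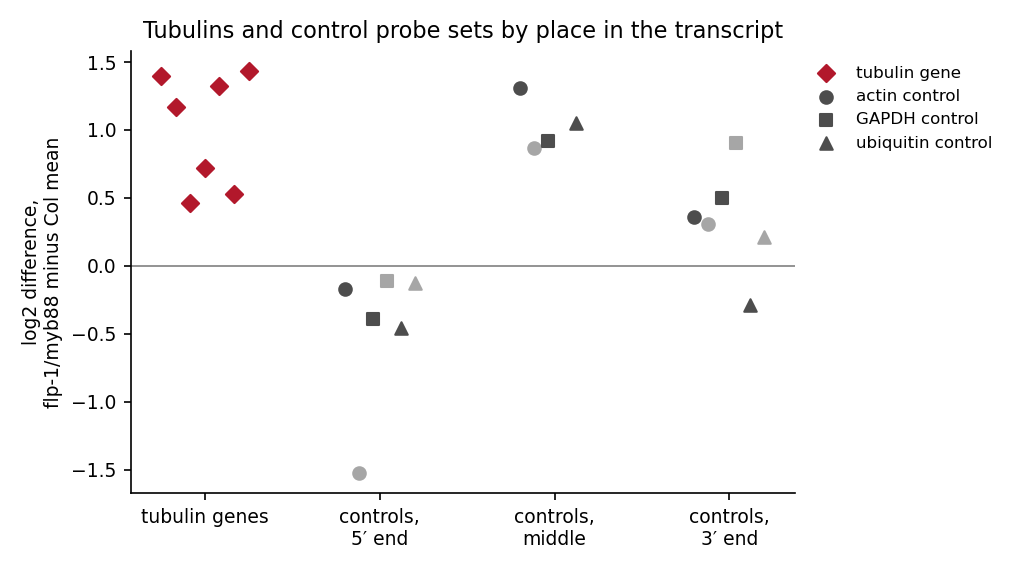
Log2 difference of flp-1/myb88 from the Col mean (vertical axis) for the 7 tubulin genes (diamonds, in the order TUA1, TUA6, TUB1, TUB5, TUB6, TUB7, TUB9) and for control probe sets of actin (circles), GAPDH (squares) and ubiquitin (triangles) at the 5′ end, the middle and the 3′ end of the transcript, with the first set of controls in dark grey and the second in light grey. The middle controls, at 0.87 to 1.31, lie within the span of the tubulins, at 0.46 to 1.44, and the 5′ controls lie below 0.

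Genes whose products work with tubulin did not move as one group. Of 79 genes on 4 lists, for tubulin folding, microtubule nucleation, microtubule-associated proteins and kinesin motors, 15 had a named probe set, of which 4 rose, 1 fell and 10 did not pass limma's threshold, where 11.9% of all probe sets were higher and 14.4% lower. The median log2 difference of those 15 was 0.42, against 0.10 over all probe sets, and 10 of the 15 lay above both Col arrays, as did 49.2% of all probe sets. The lists were drawn up with earlier results of these arrays known.

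Of the 2 measured tubulin folding genes, neither passed. Folding cofactors bring newly made alpha and beta tubulin together into a pair. POR (AT4G39920), folding cofactor C, differed by 0.61 ± 0.30 log2 (limma adjusted p = 0.147) and PFI (AT1G71440), folding cofactor E, by 0.35 ± 0.30 log2 (adjusted p = 0.414). The one measured locus of the nucleation list, AT5G17410, had log2 intensities of 5.87 in the mutant and 5.09 and 5.03 in Col. It lay above both Col arrays, with a difference of 0.81 log2 (limma adjusted p = 0.0595). Its adjusted p fell below the threshold after cyclic loess, at 0.0414, median centring, at 0.0423, and quantile normalization, at 0.0494, and was 0.110 with an intensity trend and 0.0892 with a pseudocount of 16.

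Kinesins, the motors that move along microtubules or take them apart, held 3 of the 4 rises in these lists, among 6 of 22 genes measured. KINESIN-12B (AT3G23670), a motor of the phragmoplast, had a log2 intensity of 5.54 in flp-1/myb88, against 4.59 and 4.29 in Col, and rose 2.15-fold (95% confidence interval 0.44 to 1.77 log2; limma adjusted p = 0.0198). KINESIN-13A (AT3G16630), which is known to act in trichome branching, had 7.99 in the mutant against 7.13 and 6.81 in Col. It rose by 1.01 ± 0.31 log2 (limma adjusted p = 0.0288), a call lost at an adjusted p of 0.0609 under cyclic loess and of 0.0784 under quantile normalization. The third locus, AT3G16060, rose by 1.26 ± 0.31 log2 (limma adjusted p = 0.0121). AT3G16060 was dim, with log2 intensities of 4.80 in the mutant against 3.755 and 3.338 in Col. Its Col values lay below the Col medians of the pseudogene probe sets, 4.02 and 3.93. At all 3 called kinesins, as at the called tubulins, the mutant was above both Col arrays and Col replicate 2 was the lowest. Of the 2700 probe sets called higher, all lay above both Col arrays and 2092 had Col replicate 2 below replicate 1. The 3 kinesins that did not pass were AT2G36200, which lay above both Col arrays with a difference of 0.69 log2 (limma adjusted p = 0.105), AT2G28620, at -0.17 log2, and AT4G14330, at -0.13 log2.

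**Figure D4:**
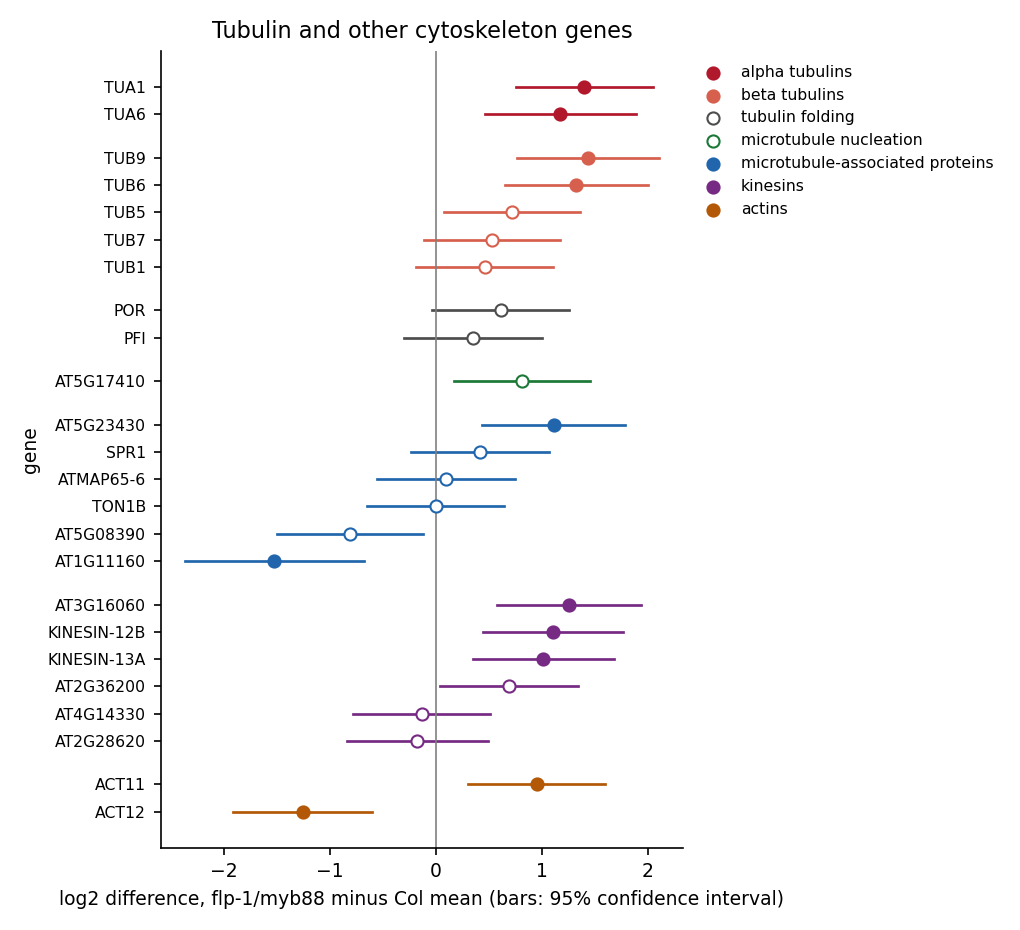
Log2 difference of flp-1/myb88 from the Col mean with its 95% confidence interval from limma (horizontal axis) for the tubulins and the measured genes of 5 other cytoskeleton lists (vertical axis, coloured by list); filled points passed the adjusted threshold of 0.05 and open points did not. The tubulins all lie right of 0, while microtubule-associated proteins and actins have called genes on both sides of 0.

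Microtubule-associated proteins, with 6 of 35 genes measured, had 1 rise, 1 fall and 4 genes that did not pass. The locus AT5G23430 rose by 1.11 ± 0.31 log2 (limma adjusted p = 0.0211) and AT1G11160 fell by 1.52 ± 0.39 log2 (limma adjusted p = 0.0140). These loci and AT5G08390 share a family name on the list, as KTN80.4, KTN80.1 and KTN80.3. AT5G23430 was dim, with Col log2 intensities of 4.39 and 3.98, near the Col medians of the pseudogene probe sets, 4.02 and 3.93. At AT1G11160 the Col arrays were 1.07 log2 apart, with log2 intensities of 5.60 in the mutant against 6.59 and 7.66 in Col, and without Col replicate 2 its difference was -0.99 log2. The difference of AT1G11160 was no longer called after quantile normalization, at an adjusted p of 0.0604. Of those that did not pass, AT5G08390 had the largest difference, at -0.81 log2 (limma adjusted p = 0.0769), and lay below both Col arrays. SPR1, a plus-end protein whose loss makes organs twist to the right, differed by 0.42 log2, and TON1B, needed for the preprophase band, by 0.00091 log2, with a sign that turned after cyclic loess and quantile normalization.

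Actin forms the other filament system of these cells, and its 2 measured genes of 9 went opposite ways. ACT11 had a log2 intensity of 5.11 in flp-1/myb88, against 4.23 and 4.09 in Col, and rose by 0.95 ± 0.30 log2 (limma adjusted p = 0.0340). ACT12 had 4.07 in the mutant, against 5.23 and 5.43 in Col. It fell by 1.26 ± 0.30 log2 (limma adjusted p = 0.00996). Both probe sets had low intensities, and with a pseudocount of 16 neither was called. In that setting the 3 kinesins and both called microtubule-associated loci also lost their calls, while TUA1, TUB6 and TUB9 kept theirs.

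Markers of several cell types and tissues were set beside these values, whether or not 10-day-old shoots hold them. Of the dividing cell list 3 of 7 genes were measured. All 3 lay above both Col arrays, as did 49.2% of all probe sets. They were Aurora kinases of the spindle and division plane. Their summed intensity was 191 in the mutant, against 106 and 108 in Col, with AUR3 past limma's threshold and AUR1 and AUR2 not. AUR3 and AUR1 were dim, with Col log2 intensities of 4.21 and 4.49 for AUR3 and of 4.31 and 4.88 for AUR1. Pollen markers, of interest because TUA1 is known from pollen, were measured at 4 of 14 genes, with a summed intensity of 112 in the mutant against 193 and 209 in Col. MGH3, a histone of the male germline, fell by 2.33 ± 0.30 log2 (limma adjusted p = 0.000498), while the other 3 pollen markers did not pass. The guard cell lineage list, with 6 of 15 genes measured, summed to 3375 in the mutant against 3633 and 3761 in Col. STOMAGEN, the brightest of them, went against the sum, at 2369 in the mutant against 1607 and 1828 in Col, and was not called. The sum therefore does not follow each gene of the list, which held calls in both directions. AT1G22690 (GC1) fell by 1.22 log2 (limma adjusted p = 0.0108) and CHX20 by 0.91 log2 (adjusted p = 0.0404), while MUTE rose by 1.07 log2 (adjusted p = 0.0247). MUTE was dim, with log2 intensities of 5.0795 in the mutant against 3.8045 and 4.2119 in Col. Those Col values lay near the Col medians of the pseudogene probe sets, 4.02 and 3.93. GC1 and CHX20 were brighter, with Col log2 intensities from 9.473 to 10.071. How far background adds to the MUTE, AUR1 and AUR3 values was not tested. Photosynthesis markers, at 3 of 19 genes, summed to 7200 against 6001 and 4744, and root markers, at 3 of 12, to 2727 against 3267 and 3141. PYK10 made up nearly all of the root sum, at 2700 in the mutant against 3232 and 3118 in Col. At EXPA7 and EXPA18, which were dim, the mutant lay between the Col arrays. The one measured epidermal marker of 8, TRY, which spaces trichomes, had an intensity of 169 in the mutant against 585 and 627 in Col, and the 8 vascular markers were not analysed here. No probe set was at 0, since the lowest deposited value was 6.06. The part of these cell types in the tubulin differences was not tested.

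Genes with the most similar values were sought among the 13512 other probe sets of exactly 1 gene, by Euclidean distance over the 3 log2 intensities. Nearest to TUB9 were AT5G12120, at a distance of 0.0561, AT2G21390, at 0.152, and FER, at 0.177. FER encodes the receptor kinase FERONIA. FER had log2 intensities of 8.90 in the mutant and 7.48 and 7.24 in Col. For TUA1 the nearest were AT1G14910, at a distance of 0.0854, AT1G62660, at 0.114, and AT3G43610, at 0.132. A likeness over 3 arrays is a description, and many probe sets share such a shape.

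**Figure D5:**
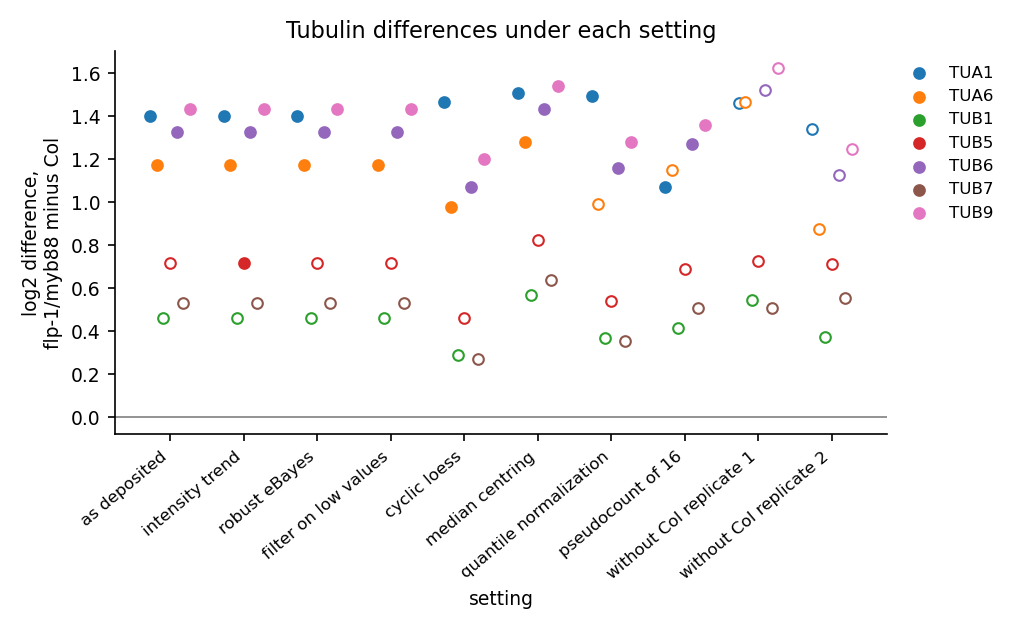
Log2 difference of flp-1/myb88 from Col (vertical axis) for each tubulin gene (colours) as deposited and under 9 alternative settings (horizontal axis); filled points passed limma's adjusted threshold of 0.05, open points did not, and the settings without a Col array have no test. All differences lie above 0, from 0.27 (TUB7, cyclic loess) to 1.62 (TUB9, without Col replicate 1), and TUA1 has no point under the filter on low values, which it did not pass.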

How the data were processed

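The authors deposited 1 intensity per probe set and array, made with RMA, per the submitters' processing notes; the sources used here name no software or settings for it. The numbers, from 6.06 to 7618, were read as linear and log2 was taken without a pseudocount. Of 22810 probe sets, 64 controls were left out of the tests; 13513 had 1 gene in the platform annotation, which can be old, 503 had several and 8730 had none. By gene ID 13436 matched the TAIR10.1 table, used for names only.

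The mutant was compared with Col at all 22746 probe sets in limma 3.58.1 (R 4.3.3; lmFit, eBayes, two-sided, Benjamini-Hochberg). The spread came from the 2 Col arrays, mostly pooled over all probe sets (1 residual and 12.1 prior degrees of freedom). It was taken to hold for the mutant array too. On simulated data the mean difference came back as simulated, which the subtraction ensures. How often differences of the size of the tubulins were called there is not given here. The prior degrees of freedom varied widely between simulations, and false calls arose in some sets without change. The number of arrays limits the precision. Alternatives were an intensity trend, a robust fit, a filter on low values, cyclic loess, median centring, quantile normalization, a pseudocount of 16 and leaving out each Col array.

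Members and lists were chosen with earlier results of these data known. All members are named; of lists other than the markers, all called genes (up to 6) or else the 2 of largest difference, plus the 3 nearest patterns of the leading alpha and beta tubulin. Marker genes, SPR1, TON1B, AT5G08390, AT2G36200, AT2G28620 and AT4G14330 were named after their values were seen. No sequence was used here.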

Additional observations from a re-analysis of the deposited data

Results flagged for a closer look

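Control probe sets in the middle of housekeeping transcripts entered none of the comparisons and were higher on the flp-1/myb88 array than on both Col arrays. The log2 difference from the Col mean was 1.31 for the first actin set, 0.87 for the second actin set, 0.92 for GAPDH and 1.05 for ubiquitin. The ubiquitin probe set, for example, had a log2 intensity of 10.14 in the mutant against 9.28 and 8.89 in Col. These differences are of the size of those of the tubulins, and their source was not tested. Groups of 1 and 2 arrays are too small for a search for single arrays that stand apart.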

How the results depend on the processing

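TUA1, TUB6 and TUB9 kept their calls in every tested alternative that measured them, at limma adjusted p-values up to 0.0398, 0.0415 and 0.0386. TUB1 and TUB7 were not called in any. The number of tubulins called higher was 5 with an intensity trend, 3 after quantile normalization, with a pseudocount of 16 and with a filter that kept the brighter 11373 probe sets, which 6 of 7 tubulins passed (TUA1 did not), and 4 in the others, with none lower. The median tubulin difference stayed between 0.88 and 1.46 log2, its values without Col replicate 2 and without Col replicate 1. Probe sets called higher numbered 1749 after quantile normalization and 1123 with a pseudocount of 16, against 2700 as deposited. Those called lower numbered 1976 with the filter and 1619 with the pseudocount, against 3282. Lower calls made up 44.8% of calls after median centring and 48.3% with the filter, against 54.9% as deposited. Of the other cytoskeleton genes, 5 were called higher and 2 lower as deposited, 1 and 1 with the filter, which leaves fewer genes, 0 and 0 with the pseudocount, and 1 lower after quantile normalization. TON1B reversed at -0.19 log2 after cyclic loess and -0.11 after quantile normalization, and AT4G14330 at 0.0697 after quantile normalization, none of them called. The cause of these changes was not tested. The prior degrees of freedom, which set the p-values here, were 4.02 with the pseudocount and 32.9 with the trend, ran down to 0.445 for single probe sets in the robust fit, and had no finite estimate with the filter. Leaving out a Col array leaves no residual spread, so those settings gave values with no test. The mean over probe sets of a gene was not run, as each tubulin had 1 probe set. No paired analysis was possible because the groups share fewer than 2 replicate numbers.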
